A study of Homo sapiens with 21 samples.

Results

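The G1 cyclins, cyclin-dependent kinases (CDKs) and their inhibitors were represented by 10 genes of the 53515 in the count files. These are the D-type cyclins CCND1 and CCND2, their kinases CDK4 and CDK6, the E-type cyclin CCNE1, the INK4 inhibitors CDKN2A, CDKN2B and CDKN2C, the CIP/KIP inhibitor CDKN1B and the retinoblastoma gene RB1. They were chosen by name, and each was found by its Ensembl identifier. Bulk RNA of 17 human cancer cell lines, 7 parental and 10 rendered resistant to a drug by exposure to rising doses over months, had been sequenced in 21 libraries. From HepG2 (liver) came HepG2S1 and HepG2S3, selected with sorafenib, and from PancVB (Panc 03.27, pancreas) came PancB1Q and PancB1V, selected with 5-fluorouracil. HCC4006P1 gave the erlotinib-resistant HCC4006ER, HCC4006P2 the gefitinib-resistant HCC4006GR and HCC827P the gefitinib-resistant HCC827GR (all lung, and both HCC4006 parents stocks of 1 cell line). In the ovary lines, UWB1.289 gave U10 and U100 under olaparib, and IGROV-1 gave IGROV-1/CDDP under cisplatin. There were 2 libraries of HCC4006P1, of HCC4006ER, of HepG2 and of HepG2S3 and 1 of each of the remaining 13 lines, so that 8 of the 10 pairs lacked a second library on a side and were described without a test. Nothing says that libraries of 1 line came from separate cultures, and p-values then measure only the spread between these libraries, which may be technical. In bulk RNA of a line, fewer cells that express a gene and less of its RNA per cell cannot be told apart.

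In textbook accounts, mitogen signals raise D-type cyclins, which activate CDK4 and CDK6 to phosphorylate RB1 in G1. Phosphorylated RB1 releases E2F transcription factors, which switch on CCNE1 and the genes of S phase, and cyclin E with CDK2 completes the phosphorylation. INK4 proteins bind CDK4 and CDK6 directly and block them, while CDKN1B restrains cyclin E with CDK2. Loss of CDKN2A, gain of CCND1 or CDK4 and loss of RB1 are well known in carcinomas.

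Levels are given as CPM, the share of a gene in all counts of its library that fell on genes, scaled to a common total. The totals lay between 9851195 and 36639473. A gene with 3 counts had 0.0819 to 0.305 CPM, and this was taken as the smallest detected level. The counts of HCC4006P1 replicate 1 stopped within chromosome 7 in alphabetical chromosome order, and of 1679 later genes with at least 50 counts in replicate 2, 0 were counted. CDK6, CDKN2A and CDKN2B lie past that point, so replicate 2 alone stood for HCC4006P1 in these genes, and the total of replicate 1 was corrected for the missing 18.1% of counts. The labelled tissues were checked against marker genes. Liver markers (ALB, APOA1, APOA2, FGB, HNF4A, TTR) summed to 18008 and 10039 CPM in the HepG2 libraries, but to 1.32 CPM in HepG2S1, with ALB, APOA1 and TTR at 0, and to 12.1 and 12.8 CPM in HepG2S3. Of 5 lung adenocarcinoma markers, only KRT7 reached 1 CPM in HCC4006P1 and HCC4006ER, while all 5 did in HCC4006P2 and HCC4006GR and 4 in HCC827P and HCC827GR. The pancreatic lines had 4 of 5 pancreatic markers (PDX1 was under 1 CPM), UWB1.289, U10 and U100 had 3 of 5 ovarian markers and the IGROV-1 lines 2 of 5, with PAX8 at 357 to 664 CPM in all 5. The counts of pancreatic and ovarian markers did not separate the tissues. U100, an ovary line, had 5 of 5 pancreatic markers, and PancVB had 4 of 5 ovarian markers. KRT7 was at 1.03 CPM in HepG2 against 2733 CPM in HepG2S1 and 2912 CPM in HepG2S3. SOX9 was at 248 CPM in HepG2 against 1.73 and 0.75 CPM. The paper's low coverage sequencing found small copy number differences between parental and resistant lines, with the HepG2 pairs as the exception. The part of these marker changes in the results on HepG2S1, HepG2S3 and HCC4006ER was not tested. Nor was that of copy number in the HepG2 results.

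The start regions of CDKN2A and CDKN2B are shown because the counts of CDKN2A pool transcripts with 2 different first exons, and because the levels of CDKN2A and CDKN2B followed each other. In RefSeq the ARF transcript of CDKN2A starts farther upstream than the INK4A transcript. These are the 250 bases before each start on build GRCh38.p14, 5′ to 3′ on the transcribed (minus) strand, with the motif GGGCGG, the core of the GC box bound by SP1, in capitals on either strand (CCGCCC).
CDKN2A, ARF start, chr9:21995325-21995574: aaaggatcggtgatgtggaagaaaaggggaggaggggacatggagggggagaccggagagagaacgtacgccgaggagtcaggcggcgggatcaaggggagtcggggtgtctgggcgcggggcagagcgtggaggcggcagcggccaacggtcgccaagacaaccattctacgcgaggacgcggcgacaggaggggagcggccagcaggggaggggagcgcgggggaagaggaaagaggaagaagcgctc
CDKN2A, INK4A start, chr9:21974858-21975107: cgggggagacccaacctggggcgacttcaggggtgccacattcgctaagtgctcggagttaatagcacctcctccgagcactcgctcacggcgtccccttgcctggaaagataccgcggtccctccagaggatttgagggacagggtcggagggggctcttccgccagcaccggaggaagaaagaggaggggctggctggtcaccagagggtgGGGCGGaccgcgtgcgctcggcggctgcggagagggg
CDKN2B start, chr9:22009306-22009555: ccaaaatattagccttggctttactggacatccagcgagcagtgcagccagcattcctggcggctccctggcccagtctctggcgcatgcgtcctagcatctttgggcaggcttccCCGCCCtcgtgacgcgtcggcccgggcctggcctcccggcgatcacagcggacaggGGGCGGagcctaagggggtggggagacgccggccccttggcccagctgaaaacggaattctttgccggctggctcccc
The windows held 24, 20 and 18 CG dinucleotides, with 66.8%, 66.8% and 66.4% of G and C. GGGCGG was found 0 times before the ARF start, 1 time before the INK4A start and 2 times before the CDKN2B start, and 42.6% of the 35116 promoter windows of this length held it on either strand. The E2F motifs searched (TTTCGCGC, TTTGGCGC and TTTCCCGC, both strands) had no match in these windows or in any other matched window of the members, and 2.32% of all windows held one. Such windows were found for 8 of the 10 genes. The window of RB1, chr13:48476200-48476449, held 0 CG dinucleotides and 36.8% of G and C. Whether it lies at the main start of RB1 was not checked, so the missing motif does not describe that start.

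A gene counted as past 2-fold in a pair where the resistant line differed from its parental line by at least 1 on the scale of log2(CPM + 1), and the 95% counting interval of that difference excluded 0. This scale understates the change of low genes, and the intervals hold for counting error alone, as PCR copies of a molecule are counted as separate reads. Of the 100 gene and pair combinations, 88 reached 1 CPM in either line. Among these, 14 were past 2-fold higher and 9 past 2-fold lower in the resistant line, or 26.1%, while over all genes and pairs 11.7% were higher and 9.17% lower, 20.9% together. In HepG2S1, 3 genes were higher (CDKN2A, CDKN2B, CDKN2C) and 2 lower (CCND1, CCND2), with 25.5% and 18.4% of all tested genes in those directions and 43.9% in either. HepG2S3 had 4 higher, the same 3 and CDK4, and the same 2 lower, against 27.3% and 17.7% of all genes and 45% in either direction. PancB1Q had 0 of 8 genes past 2-fold (6.1% of all genes higher, 9.41% lower, 15.5% either way) and HCC827GR 0 of 9 (10.6%, 7.67% and 18.3%). In PancB1V 1 of 8 was lower, CDKN2C (7.25% of all genes lower, 8.89% higher, 16.1% either way). In HCC4006ER 1 of 7 was higher, CDK6, and 1 lower, CCND1 (13.3% and 10.1% of all genes, 23.5% either way). HCC4006GR also had 1 of 7 higher, CDK6, and 1 lower, CDKN2C (7.75%, 7.47% and 15.2%). U10 and U100 each had CDKN2B higher and CDKN2C lower, 1 of 10 genes each way (6.27%, 5.11% and 11.4% of all genes higher, lower and either way in U10, and 6.43%, 1.73% and 8.16% in U100). IGROV-1/CDDP had 3 of 9 higher, CDK6, CDKN2A and CDKN2B (5.55% of all genes), and 0 lower (7.21%), where 12.8% of all genes passed either way. The median change of all tested genes was itself 0.25 in HepG2S1 and 0.28 in HepG2S3. There, trimmed mean of M-values (TMM) scaling lowers changes by about 0.35 and 0.28. In HCC4006ER it lowers them by about 0.11, and in PancB1Q it raises them by about 0.20. Genes at low levels shift less on this scale.

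**Figure D1:**
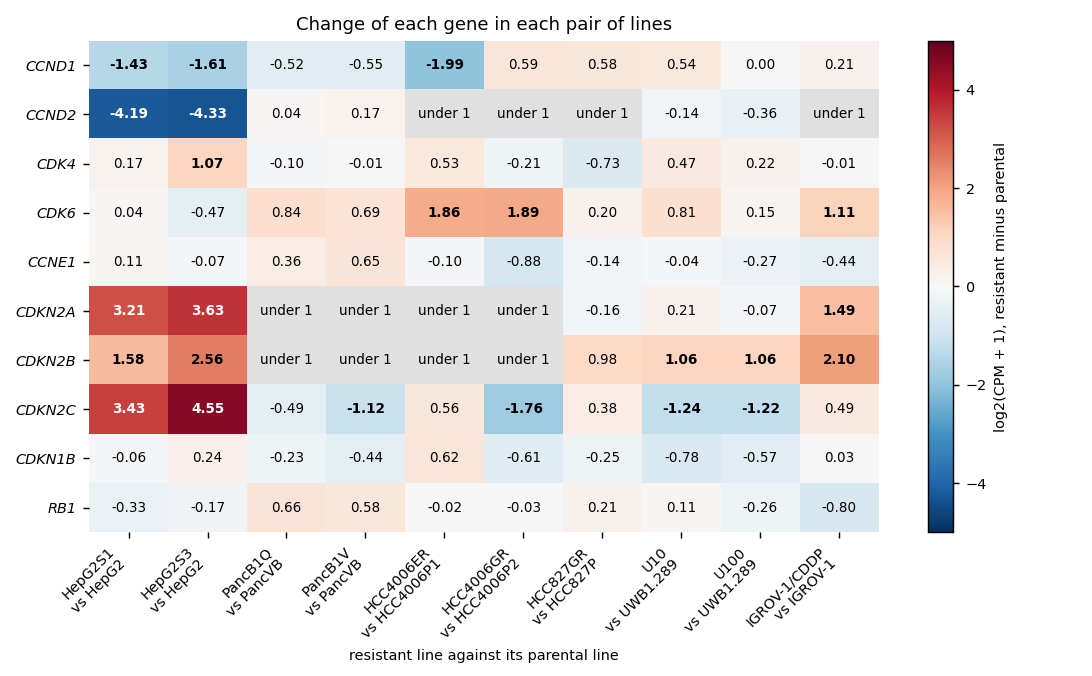
Change of the 10 genes (rows) in 10 resistant lines against their parental lines (columns), as log2(CPM + 1) of the resistant line minus that of the parental line, with replicate libraries averaged. Bold values are past 2-fold, grey cells are genes under 1 CPM in both lines, and the darkest cells are the INK4 genes (up to 4.55) and CCND2 (down to -4.33) in HepG2S1 and HepG2S3.

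CCND1 (ENSG00000110092, chr11:69455924-69469242 on GRCh37, plus strand) encodes cyclin D1, the D-type cyclin of most epithelial cells. It was at 450 and 431 CPM in the HepG2 libraries, at 163 CPM in HepG2S1 and at 136 and 152 CPM in HepG2S3. In HCC4006P1 it was at 552 and 772 CPM, and in HCC4006ER at 142 and 189 CPM. The libraries of the resistant lines were thus below those of the parental lines with no overlap, with a difference on the log2(CPM + 1) scale of -1.43 in HepG2S1 (-1.46 and -1.40 against either HepG2 library), -1.61 ± 0.095 in HepG2S3 and -1.99 ± 0.36 in HCC4006ER (SD over 4 pairings of libraries). Of the other 7 pairs none was past 2-fold. How many of all genes separated without overlap was not counted, here or for the genes below. In the edgeR tests below, 63.5% of all genes passed in HepG2S3 and 49% in HCC4006ER. CCND1 was at 825 CPM in PancVB against 573 and 563 CPM in PancB1Q and PancB1V, and at 760 CPM in HCC4006P2 against 1142 CPM in HCC4006GR. It went from 435 to 648 CPM in HCC827GR and from 996 to 1155 CPM in IGROV-1/CDDP, and from 625 CPM in UWB1.289 to 907 CPM in U10 and 625 CPM in U100. The lowest line was HepG2S3 and the highest IGROV-1/CDDP, and no line was without CCND1 reads.

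CCND2 (ENSG00000118971, chr12:4378937-4414519, plus strand), which encodes cyclin D2 and is the D-type cyclin of many haematopoietic and gonadal cells, was either abundant or nearly absent. UWB1.289 had 430 CPM, U10 390 CPM and U100 335 CPM, and PancVB, PancB1Q and PancB1V had 203, 210 and 230 CPM. HepG2 was in between, with 8.41 and 29.8 CPM in its 2 libraries, while HepG2S1 had 0.10 CPM (1 count) and both HepG2S3 libraries had 0 counts. With 3 counts per library as the floor, CCND2 was at least 85.9-fold lower in HepG2S3 than in HepG2 replicate 1 and at least 305-fold lower than in replicate 2 (195-fold against their mean). In the remaining 8 lines, of lung and of the IGROV-1 series, it was at 0 to 0.59 CPM. CCND1 and CCND2 were both lower in HepG2S1 and HepG2S3, whereas the third D-type cyclin, CCND3, was higher, at 16.7 CPM in HepG2 against 103 and 83.8 CPM.

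CDK4 (ENSG00000135446, chr12:58141510-58149796, minus strand), one of the kinases that D-type cyclins activate, was at 66.4 to 316 CPM in 15 lines and far above this in the HCC827 lines, at 2113 CPM in HCC827P and 1272 CPM in HCC827GR. The resistant line minus its parent gave -0.73 (counting interval -0.76 to -0.71), short of 2-fold. Of the 10 nearest protein-coding genes with at least 1 CPM in any line, 3 were above all 15 other lines in both HCC827 lines. These were OS9, at 2336 and 2932 CPM against 135 to 321 CPM elsewhere, TSPAN31, at 184 and 187 CPM against 11.5 to 36.9 CPM, and AGAP2, at 25.6 and 61.3 CPM against 0.0728 to 20.1 CPM. All 3 lie on the same side of CDK4, and the midpoint of OS9 is 40.8 kb from that of CDK4. Farther out on that side, B4GALNT1 was above the other 15 lines in 1 HCC827 line only. It had 24.8 CPM there and 1.90 CPM in the other HCC827 line, against at most 5.83 CPM elsewhere. ARHGEF25 was within the range of the other lines. The next genes on the other side, among them MARCHF9, METTL1 and TSFM, were within the range of the other lines, apart from CYP27B1, which at 8.94 CPM in HCC827GR was just above it. TSPAN31 and MARCHF9 overlap CDK4 on the opposite strand, and since the strand setting of the counting is not given in the sources used here, reads of these genes cannot be told apart. Copy number was not analysed here. In the HepG2 lines CDK4 was at 151 and 149 CPM in HepG2, 169 CPM in HepG2S1 and 305 and 327 CPM in HepG2S3, the 1 pair past 2-fold (1.07 ± 0.06, SD over 4 pairings), which TMM scaling brings to 0.78.

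**Figure D2:**
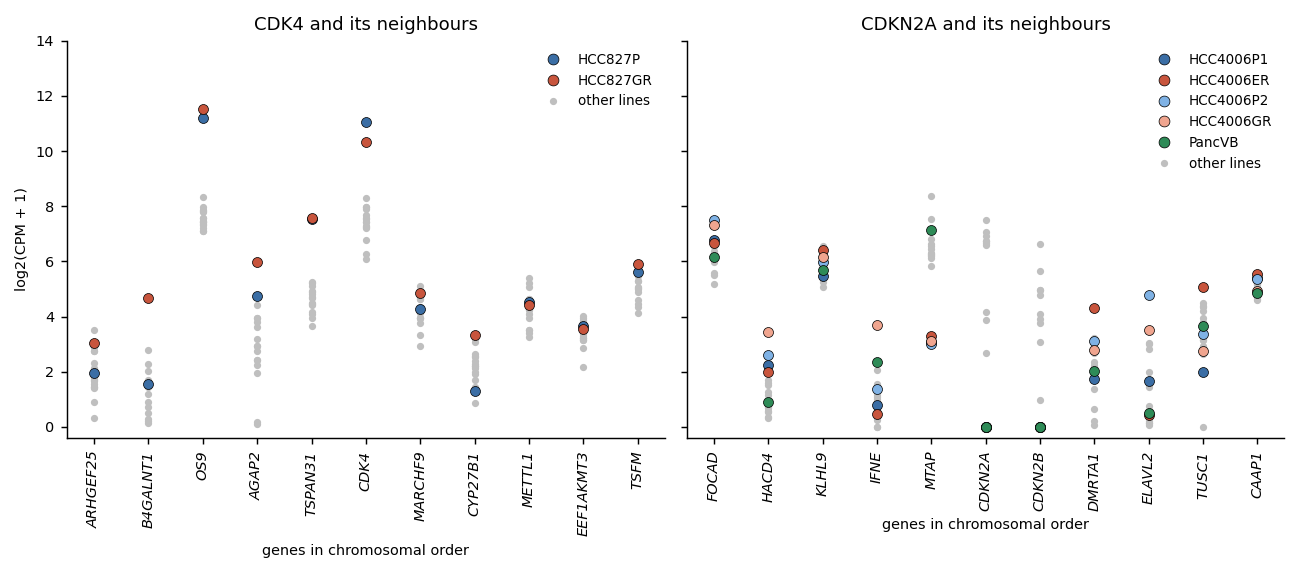
Levels, as log2(CPM + 1), of CDK4 and CDKN2A and of the 10 nearest expressed protein-coding genes of each, in chromosomal order on the x axis. Each point is 1 line. OS9, AGAP2, TSPAN31 and CDK4 stand above the other lines in HCC827P and HCC827GR, and MTAP stands below the other lines in the 4 HCC4006 lines (at most 8.77 CPM) but not in PancVB.

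CDK6 (ENSG00000105810, chr7:92234235-92465887, minus strand), the other D-type cyclin kinase, was nearly absent from one lineage. It was at 0.33 CPM in IGROV-1 (9 counts) and 1.86 CPM in IGROV-1/CDDP, against 44.4 to 1128 CPM in the other 15 lines. CDK6 was at 44.4 CPM in HCC4006P1 (replicate 2), against 172 and 156 CPM in HCC4006ER, a difference of 1.86 (counting interval 1.76 to 1.96). The gefitinib pair of the same cell line gave 44.8 CPM in HCC4006P2 and 169 CPM in HCC4006GR, a difference of 1.89 (1.77 to 2.02). The 2 resistant lines had no overlap with the parental libraries and nearly the same levels. They had been selected with different drugs, for both of which the paper names EGFR as the target, and their parents are stocks of 1 cell line. CDK6 was past 2-fold in IGROV-1/CDDP too (1.11, interval 0.72 to 1.44), from a level near the floor. PancB1Q and PancB1V, at 1128 and 1017 CPM against 628 CPM in PancVB, and U10, at 633 CPM against 360 CPM, were higher by 0.84, 0.69 and 0.81. In the other 4 pairs CDK6 differed by -0.47 to 0.20, with 171 CPM in HepG2S3 against 237 CPM in HepG2. CDK6 was thus higher in the resistant line in 9 of 10 pairs, which come from 7 parental lines. Among these is HepG2S1, at 0.04 with a counting interval of -0.02 to 0.11 that spans 0, which TMM scaling turns to -0.32. How many of all genes were higher in as many pairs was not counted. Per kb of annotated exons, the level of CDK6 was 0.0342 times that of CDK4 in HCC827P, 0.104 in HCC4006P1, 0.265 in HCC4006ER, 0.147 in HCC4006P2, 0.642 in HCC4006GR, 0.629 in PancVB and 1.21 in PancB1Q. This ratio assumes reads from whole transcripts, and which libraries came from a 3′ end kit is not given in the sources used here.

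CCNE1 (ENSG00000105173, chr19:30302898-30315219, plus strand), the E2F-controlled cyclin that drives S phase entry with CDK2, was at 6.93 CPM in HCC4006ER, the lowest line, and at 49.7 CPM in UWB1.289, the highest, with a median over lines of 19.4 CPM. No pair was past 2-fold, and the differences ran from -0.88 in HCC4006GR (8.74 against 16.9 CPM, interval -1.16 to -0.60) to 0.65 in PancB1V (23.4 against 14.5 CPM, interval 0.47 to 0.84). The HepG2 libraries gave 24.2 and 16.7 CPM, which spans the 19.3 and 19.6 CPM of HepG2S3.

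CDKN2A (ENSG00000147889, chr9:21967751-21995300, minus strand) encodes the CDK4 and CDK6 inhibitor INK4A and, from its other first exon, ARF, which stabilizes p53. It had 0 counts in 7 of 17 lines, namely PancVB, PancB1Q, PancB1V, HCC4006P1, HCC4006ER, HCC4006P2 and HCC4006GR, which allows at most 0.0765 to 0.220 CPM per line. CDKN2B (ENSG00000147883, chr9:22002902-22009304, minus strand), the adjacent INK4 gene, had 0 counts in the same 7 lines. The nearest gene on the far side of CDKN2A, MTAP, was at 6.98 to 8.77 CPM in the 4 HCC4006 lines, below the 55.3 to 328 CPM of the other 13 lines. In PancVB, PancB1Q and PancB1V it was at 140, 97.9 and 77.4 CPM, so that the zeros of CDKN2A and CDKN2B came with and without low MTAP. DMRTA1, next to CDKN2B on the other side, had reads in all 7 lines. Parental and resistant lines of these lineages were alike in having 0 counts.

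In the 10 lines with reads, CDKN2A was at 6.44 and 20.9 CPM in the HepG2 libraries, 134 CPM in HepG2S1 and 165 and 195 CPM in HepG2S3. Every library of the resistant lines lay above both HepG2 libraries, by 3.21 in HepG2S1 (2.63 and 4.18 against either library) and by 3.63 ± 0.91 in HepG2S3 (SD over 4 pairings, range 2.92 to 4.72). The spread comes from HepG2, whose 2 libraries differed by more than the libraries of HepG2S3. In IGROV-1/CDDP CDKN2A was at 17.01 CPM against 5.42 CPM in IGROV-1 (1.49, interval 1.25 to 1.72). The other 3 pairs were within 0.21 either way, at 107 and 95.6 CPM in HCC827P and HCC827GR, and at 105, 121 and 99.5 CPM in UWB1.289, U10 and U100.

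CDKN2B encodes INK4B, known as a target of TGF-β signalling. It was higher in the resistant line in 6 of the 6 pairs in which it had reads, and past 2-fold in 5. These pairs come from 4 parental lines, since HepG2 and UWB1.289 each serve 2 pairs. The share of all genes that were higher in every such pair was not counted. HepG2 had 7.59 and 24.4 CPM, HepG2S1 49.8 CPM and HepG2S3 110 and 88.1 CPM, which do not overlap, with differences of 1.58 (1.00 and 2.57 against either library) and 2.56 ± 0.92 (SD over 4 pairings). IGROV-1 had 0.98 CPM (27 counts) and IGROV-1/CDDP 7.48 CPM, a difference of 2.10 (interval 1.75 to 2.40). UWB1.289 had 14.03 CPM against 30.3 CPM in U10 and 30.4 CPM in U100, differences of 1.06 (0.80 to 1.32) and 1.06 (0.81 to 1.31). HCC827P had 12.7 CPM and HCC827GR 26.2 CPM (0.98, interval 0.76 to 1.20), just short of 2-fold. In U100 the value was 0.98 with TMM scaling. In the U10, U100 and HCC827GR pairs CDKN2B was thus higher by 0.98 to 1.06 while CDKN2A was within 0.21 of the parental line.

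Over the 17 lines the log2(CPM + 1) values of CDKN2A and CDKN2B had a Pearson r of 0.97, and of 12389 protein-coding genes with at least 10 CPM in any line CDKN2B was the one most like CDKN2A. The points are not independent, since lines of 1 parent share its origin, and 7 lie at 0 for both genes. The lncRNA CDKN2B-AS1 overlaps both genes on the opposite strand, at a median of 1.62 CPM and at most 12.2 CPM, in PancVB, where both genes had 0 counts. The next most like CDKN2A was CIAPIN1 (0.93), and for CDKN2B it was HSPA13 (0.91).

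**Figure D3:**
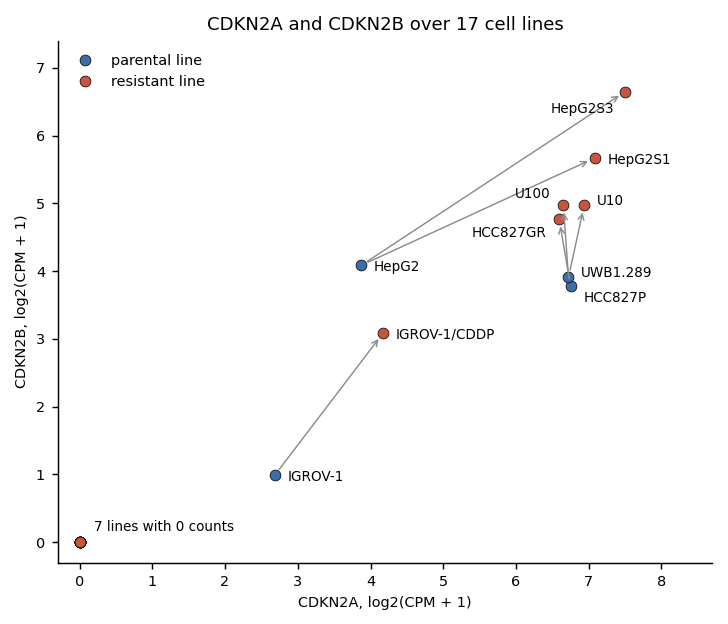
Level of CDKN2B against that of CDKN2A over 17 lines, both as log2(CPM + 1), with replicate libraries averaged. Arrows lead from a parental to its resistant line. All 6 arrows point up, those of HepG2 and IGROV-1 also point to the right, and 7 lines lie at 0 on both axes.

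CDKN2C (ENSG00000123080, chr1:51426417-51440306, plus strand) encodes INK4C, which lies apart from the other INK4 genes and which E2F factors are known to induce. It had reads in all 17 lines and differed in both directions. In HepG2 it was at 5.27 and 1.18 CPM, in HepG2S1 at 44.5 CPM and in HepG2S3 at 100.5 and 95.5 CPM, higher by 3.43 (2.86 and 4.38 against either library) and by 4.55 ± 0.88 (SD over 4 pairings). CDKN2C was lower and past 2-fold in 4 pairs. It went from 9.11 CPM in HCC4006P2 to 1.99 CPM in HCC4006GR (-1.76, counting interval -2.15 to -1.33) and from 59.8 CPM in PancVB to 26.9 CPM in PancB1V (-1.12, -1.26 to -0.99). UWB1.289 had 12.4 CPM against 4.68 CPM in U10 (-1.24, -1.63 to -0.83) and 4.73 CPM in U100 (-1.22, -1.59 to -0.85), so that both olaparib-resistant lines had more CDKN2B and less CDKN2C than their shared parent. PancB1Q, at 42.1 CPM, differed by -0.49. HCC4006ER, HCC827GR and IGROV-1/CDDP were higher by 0.56, 0.38 and 0.49.

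CDKN1B (ENSG00000111276, chr12:12838432-12875303, plus strand) encodes KIP1, the inhibitor of cyclin E with CDK2 that marks quiescent cells. It was past 2-fold in no pair and lay between 24.1 CPM in HCC4006GR and 161 CPM in IGROV-1/CDDP. It was lower in 7 of 10 pairs, most in U10 (30.5 against 53.1 CPM, -0.78, interval -0.97 to -0.59), HCC4006GR (24.1 against 37.3 CPM, -0.61) and U100 (35.5 CPM, -0.57). Of these, HepG2S1 (-0.06) had a counting interval that spans 0, and the share of all genes lower in as many pairs was not counted. In HCC4006ER it was at 69.0 and 67.5 CPM, above the 52.3 and 36.0 CPM of HCC4006P1 (0.62 ± 0.30, SD over 4 pairings). HepG2 and HepG2S3 differed by 0.24, which TMM scaling turns to -0.05.

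RB1 (ENSG00000139687, chr13:48877880-49173572, plus strand), the target of the D-type cyclin kinases, was expressed in all 17 lines at 48.9 to 180 CPM and was past 2-fold in no pair. The largest differences were a lower level in IGROV-1/CDDP (48.9 against 85.7 CPM, -0.80, interval -0.89 to -0.70) and higher levels in PancB1Q and PancB1V (167 and 159 against 106 CPM, 0.66 and 0.58). Mutations of RB1 cannot be seen in these counts.

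**Figure D4:**
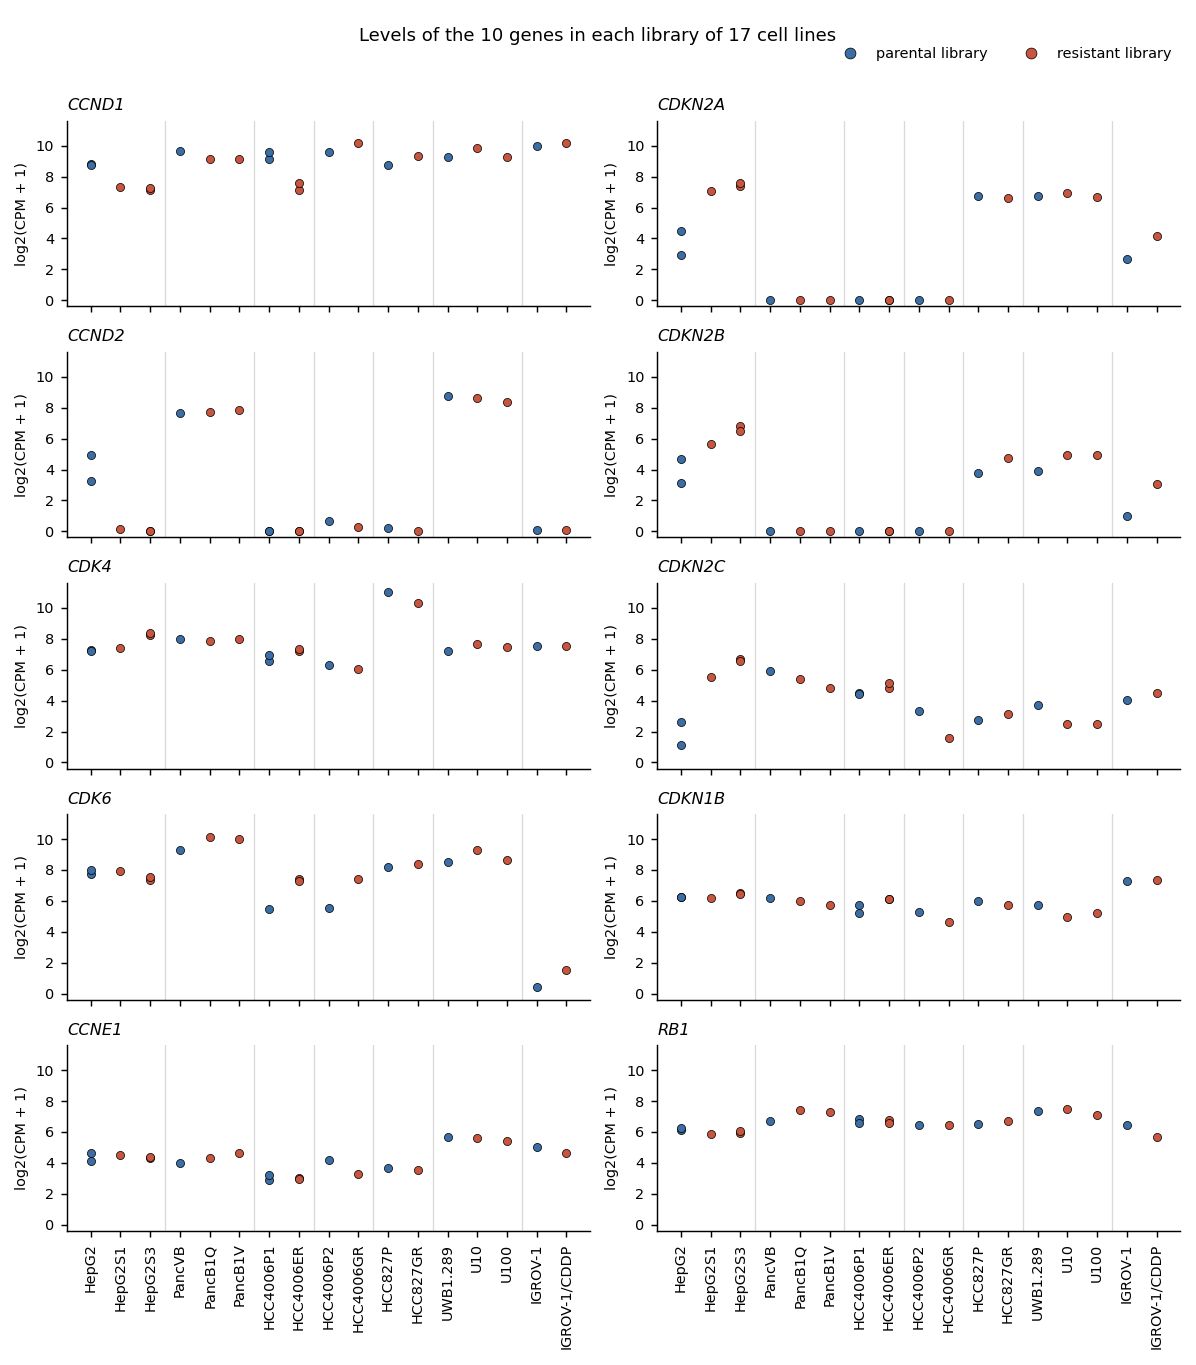
Level of each gene, as log2(CPM + 1), in every library (points) of the 17 lines on the x axis, with parental lines in blue and resistant lines in red. CDKN2A and CDKN2B lie at 0 in the Panc and HCC4006 lines, CCND2 is above 200 CPM only in the Panc and UWB1.289 lines, and CCNE1, CDKN1B and RB1 have reads in every line (lowest 6.93, 24.1 and 48.9 CPM).

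Tests were possible in the pairs with 2 libraries on each side, by quasi-likelihood in edgeR with p-values adjusted over all genes (Benjamini-Hochberg). In HepG2S3 against HepG2, 8 of the 10 genes passed, 4 higher and 4 lower, and 63.5% of the 16929 genes tested passed too (31.4% higher, 32.1% lower). CDKN2C rose by 4.601 ± 0.681 (SE, log2 fold change, adjusted p = 0.0028), CDKN2A by 3.41 ± 0.56 (adjusted p = 0.0039), CDKN2B by 2.32 ± 0.54 (adjusted p = 0.014) and CDK4 by 0.76 ± 0.12 (adjusted p = 0.0036). CCND1 fell by 1.93 on the log2 scale (SE 0.13, adjusted p = 0.00022), and CCND2 fell as well (adjusted p = 0.0027), its fold being the bound given above. CDK6 fell by 0.78 (SE 0.15, adjusted p = 0.0068) and RB1 by 0.49 (SE 0.13, adjusted p = 0.022). CCNE1 (-0.39 ± 0.22, adjusted p = 0.18) and CDKN1B (-0.07 ± 0.12, adjusted p = 0.62) did not pass. The call of CDK4 was lost without HepG2S3 replicate 2 (adjusted p = 0.058), that of CDK6 without HepG2S3 replicate 1 (0.094) and that of RB1 without either (0.30 and 0.16). Without HepG2 replicate 1 CDKN2A rose by 2.79 and without replicate 2 by 4.47, CDKN2B by 1.71 and 3.38, and CDKN2C by 6.06 and 3.88.

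In HCC4006ER against HCC4006P1, fitted on the 12791 genes before the missing stretch, 6 of the 10 genes were tested, and 2 rose and 1 fell (24.1% and 24.9% of all genes, 49% either way). CCND1 fell by 2.10 (SE 0.23, adjusted p = 0.00062). CDKN1B rose by 0.53 ± 0.17 (adjusted p = 0.041) and CDKN2C by 0.48 ± 0.17 (adjusted p = 0.04999), but both calls were lost without either HCC4006ER library (adjusted p = 0.15 and 0.15 for CDKN1B, 0.089 and 0.54 for CDKN2C), and that of CDKN2C with DESeq2 (0.069). CDK4 (0.43 ± 0.18, adjusted p = 0.084), CCNE1 (-0.21 ± 0.22, 0.46) and RB1 (-0.12 ± 0.13, 0.50) did not pass. With replicate 2 as the only HCC4006P1 library, assumed to vary like those of HCC4006ER, CDK6 rose by 1.70 ± 0.13 (adjusted p = 4.9e-40, and 1.3e-26 with DESeq2). In that fit 7 genes were tested, of which 3 rose and 2 fell (30.8% and 31.2% of 16597 genes, 61.9% either way), CDKN2A and CDKN2B having no counts. CCNE1 was lower there by 0.47 (adjusted p = 0.026) and CDKN2C higher by 0.43 (0.0044), and neither passed with DESeq2 (0.32 and 0.17).

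**Figure D5:**
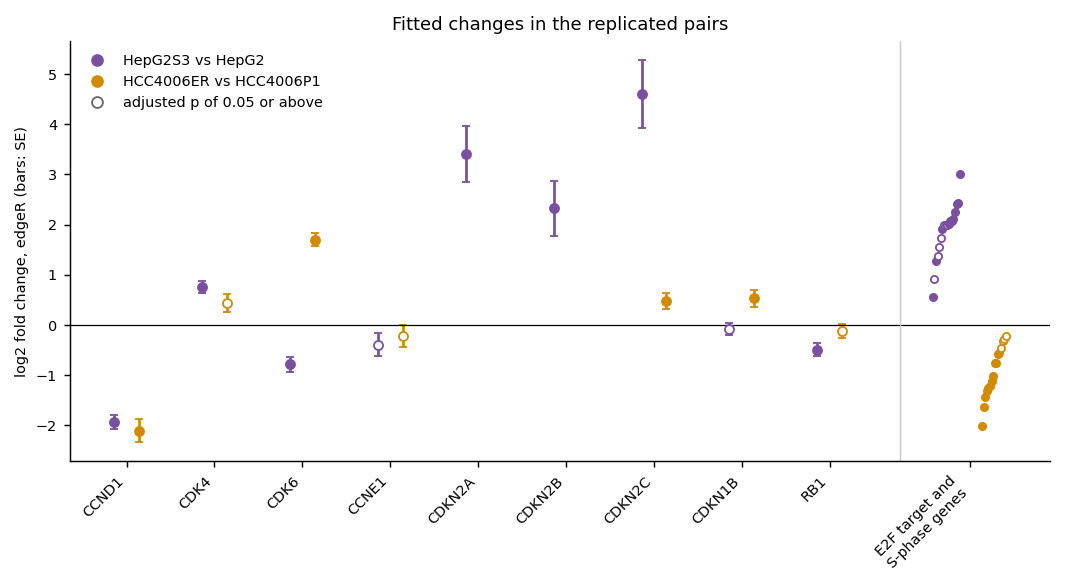
Fitted log2 fold changes of 9 of the genes with edgeR (points, bars are SE) in HepG2S3 against HepG2 and in HCC4006ER against HCC4006P1, with the E2F target and S-phase genes (1 point each) at the right. Filled points have an adjusted p under 0.05. CCND1 is near -2 in both pairs, CDKN2C stands apart in HepG2S3 (4.601 against 0.48 in HCC4006ER), CDK6 of HCC4006ER is from replicate 2 of HCC4006P1 alone, and CCND2 is left out because HepG2S3 has 0 counts. The bar and fill of that CDK6 point hold no spread between HCC4006P1 libraries.

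Whether a gene changed on average was tested over 7 parental lines, with the counts of their resistant lines summed and the parental line as a block. Whether the direction was the same in every lineage is not asked by this test. edgeR called 0 of 15847 genes (0% either way), 722 genes had an unadjusted p under 0.05, and DESeq2 called 85 higher and 21 lower. Of 9 members tested, 0 passed and 2 had an unadjusted p under 0.05 with edgeR. CDKN2B had the largest value, 1.78 ± 0.45 (SE, edgeR adjusted p = 0.98), and CDK6 had 0.97 ± 0.38 (adjusted p = 0.98). With DESeq2 these were 1.501 ± 0.597 (adjusted p = 0.36) and 0.97 ± 0.39 (0.39), and without the HepG2 lines edgeR gave 1.62 ± 0.55 (0.74) and 1.23 ± 0.32 (0.65). CDKN2A had 1.17 ± 0.67 (adjusted p = 0.98) and 0.51 ± 0.44 without HepG2. CDKN2A and CDKN2B had 0 counts in PancVB, HCC4006P1, HCC4006P2 and their resistant lines, so their values rest on the other parental lines. HCC4006P1 and HCC4006P2 were separate blocks, and taken as 1 line they left 0 of 16348 genes called by edgeR.

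Whether the changes in HepG2S3 and HCC4006ER differed was tested as an interaction in edgeR. Of 7 members tested, CDKN2C was called, with the higher change in HepG2S3, and 0 were called the other way (28.2% and 27.7% of 14478 genes, 55.9% either way). CCND2, among the 7, could not be called, as it had 0 counts in HCC4006P1, HCC4006ER and HepG2S3. In a fit without HCC4006P1 replicate 1, the difference for CDK6 was -2.49, the lower change being in HepG2S3. CDKN1B missed the threshold (-0.58 ± 0.23, adjusted p = 0.055) but passed it with DESeq2 (0.035), with relative log expression scaling (0.043) and with a replicate block (0.047). Without HCC4006P1 replicate 1 its difference was -0.82. For CCND1, which fell in both pairs, the difference was 0.20 ± 0.30 (adjusted p = 0.60).

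The rest of the G1 machinery was followed in 26 further genes. In HepG2S3 against HepG2, 11 rose and 6 fell with edgeR (median 0.45), a share close to that of all genes (31.4% higher, 32.1% lower, 63.5% either way). CDK2, the partner of cyclin E, rose by 3.56 ± 0.30 (adjusted p = 0.00045), CCND3 by 2.01 ± 0.21 (0.00082), E2F7, an E2F repressor, by 3.04 ± 0.63 (0.0092) and E2F2, an activator, by 2.21 ± 0.70 (0.038). CDKN1A, the p53 target p21, fell by 1.38 (SE 0.37, adjusted p = 0.023). The others that rose besides CDKN1C were CCNE2, SKP2, CKS1B, TFDP1, TFDP2 and CUL1 (0.40 to 2.30), and the others that fell were E2F4, E2F5, E2F6, CDK7 and FBXW7 (-2.04 to -0.60). CDKN1C, the third CIP/KIP gene, was near 0 in HepG2 (0.03 CPM) and at 445 CPM in HepG2S1 and 239 CPM in HepG2S3. In HCC4006ER against HCC4006P1, 1 of 23 rose and 8 fell (median -0.43, against 24.1% higher, 24.9% lower and 49% either way of all genes), among them CDK2 (-1.05 ± 0.19, adjusted p = 0.0050), E2F1 (-1.47 ± 0.35, 0.015) and E2F2 (-1.40 ± 0.29, 0.0074), while CDKN1C rose by 0.70 ± 0.22 (0.036). The others that fell were E2F6, E2F8, CKS1B, MNAT1 and FBXW7 (-1.45 to -0.75). Over the 10 pairs, the genes most often past 2-fold were CDKN1C (5 higher, 1 lower), CDKN1A (4 higher, 1 lower), E2F7 (4 higher), E2F2 (2 higher, 2 lower) and CKS1B, a CDK subunit (2 higher, 2 lower). CDKN1A was higher by 1.86 in PancB1V, 1.73 in HCC4006GR, 1.30 in HCC827GR and 1.02 in U100, lines in which CDKN1B differed by -0.61 to -0.25.

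The 18 E2F target and S-phase genes, a list that also holds genes of mitosis such as CCNB1, went in opposite directions in the 2 replicated pairs. In HepG2S3, 11 rose and 0 fell with edgeR (median 2.00, against 31.4% higher and 32.1% lower of all genes), such as CDC6, which loads the replicative helicase, by 2.44 ± 0.74 (adjusted p = 0.033) and TYMS, thymidylate synthase, by 2.07 ± 0.21 (0.00080). Others that rose were MCM2, MCM3, MCM5, MCM6, MCM7, PCNA, CDK1 and TK1, from 0.56 in PCNA to 2.9998 in MCM2. The summed level of the list was 1824 and 652 CPM in the HepG2 libraries, 5409 and 5358 CPM in HepG2S3 and 5234 CPM in HepG2S1, where 17 of 18 were past 2-fold higher (25.5% of all genes, median 2.21 against 0.25 for all genes). The HepG2 libraries thus differed from each other in the S-phase genes as they did in CDKN2A, CDKN2B, CDKN2C and CCND2, replicate 2 having less of the S-phase genes and of CDKN2C and more of CDKN2A, CDKN2B and CCND2. The part of that difference in the HepG2 results was not tested. In HCC4006ER, 0 of 16 rose and 12 fell (median -0.89, against 24.1% higher and 24.9% lower of all genes), such as CDC6 (-2.02 ± 0.31, adjusted p = 0.0025), the helicase subunit MCM2 (-1.43 ± 0.24, 0.0034) and RRM2, a subunit of ribonucleotide reductase (-1.26 ± 0.28, 0.011). Others that fell were MCM3, MCM5, MCM6, PCNA, CDT1, CCNA2, CCNB1 and TK1 (-1.64 to -0.57). The difference between the changes in the 2 pairs was itself called by edgeR in 13 of 16 of these genes, all with the higher change in HepG2S3 (28.2% of 14478 genes in that direction). Without replicates, HCC4006GR had 17 of 18 past 2-fold lower (7.47% of all genes, median -1.77 against -0.078) and HCC827GR 11 of 18 lower (7.67% of all genes, median -1.12 against 0.047), while the median was -0.24 to 0.27 in the other 5 pairs. CCNB1 and MKI67, a mitotic cyclin and a proliferation marker, were past 2-fold in 7 of 10 pairs each, 3 higher and 4 lower. In the HepG2 lines the S-phase genes were thus higher with more CDKN2A, CDKN2B and CDKN2C RNA and less CCND1, and in HCC4006ER, HCC4006GR and HCC827GR they were lower with CCND1 changes of -1.99, 0.59 and 0.58.

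By the same measure of likeness, the 2 genes most like each of the others over the 17 lines were PCDH19 and SLC6A15 for CCND2 (r = 0.96 and 0.95), ATP5MC2 and BLOC1S1 for CDKN2C (0.93 and 0.91), PDHB and UQCR10 for CDKN1B (0.91 and 0.90) and SYDE2 and RMDN1 for CCNE1 (0.91 and 0.89). For CDK4 they were ADTRP and MRPS28 (0.90 and 0.90), for CDK6 CDC42EP1 and GDAP1 (0.90 and 0.89), for RB1 HYLS1 and PCDHGC3 (0.89 and 0.88) and for CCND1 ARVCF and SEC62 (0.84 and 0.83). Among the 10 genes themselves, the next highest value after CDKN2A and CDKN2B was that of CCND2 and RB1 (0.77), and the lowest that of CDK6 and CDKN1B (-0.59). These values are descriptions over lines that share parents.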

How the data were processed

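RNA sequencing of 21 libraries from 17 cell lines was analysed. The authors deposited HTSeq read counts per Ensembl gene, not normalized; per the submitters' processing notes Bowtie, TopHat, SAMtools and HTSeq were used on hg19 (GRCh37), with versions and strand setting not given in the sources used here. The labels name a stranded mRNA kit, and the methods also a 3′ end kit. HTSeq's summary entries (28.0% to 42.8% of each file) were left out. Of 53515 genes, 45100 (84.3%) were matched to GENCODE annotation.

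CPM were taken from total counts, replicate libraries averaged and differences taken on log2(CPM + 1), with 95% Wilson intervals of each line combined. Counts were tested with edgeR 4.0.16 (quasi-likelihood, TMM, filterByExpr, adjusted p under 0.05), and the scripts were tested on simulated data. The coefficient of variation between replicates was 0.197 (HepG2 pair) and 0.137 (HCC4006 pair). Replicates were numbered by the A or B in the labels; another label gives both HepG2 libraries, and both HepG2S3 libraries, 1 number. Alternatives used DESeq2 1.42.0, other scalings, filters and pseudocounts, the replicate number as a block and libraries left out. R 4.3.3, Python 3.11.15, numpy 2.4.6, pandas 2.3.3, scipy 1.17.1 and matplotlib 3.10.9 were used.

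The members, lists and tests were chosen with earlier results of these data known. Named are all members, the listed G1 and S-phase genes past 2-fold in the most pairs or called in a replicated test, and the 2 genes most like each member over the lines, apart from 1 listed gene that is not reported here. The 5 expressed protein-coding genes on each side were examined for every member, and those of CDK4 and CDKN2A are described, chosen after their values were seen.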

Additional observations from a re-analysis of the deposited data

Results flagged for a closer look

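The change of CDKN2C differed between the 2 pairs with replicates. It was 4.601 in HepG2S3 and 0.48 in HCC4006ER (edgeR log2 fold change), and the difference of 4.16 ± 0.67 (SE) passed edgeR's test of the interaction (adjusted p = 0.00079), as did 55.9% of the 14478 genes tested. It was 3.45 to 5.61 when either HepG2 library was left out.

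The change of CDK6 differed as well. It could be tested only without HCC4006P1 replicate 1, which has no counts for this gene, an alternative chosen after seeing the data. CDK6 fell in HepG2S3 and rose in HCC4006ER, with a difference of -2.49 ± 0.23 (SE, edgeR adjusted p = 0.00015), and 48.5% of 19770 genes were called in that fit. The 1 HCC4006P1 library was assumed to vary like the others.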

How the results depend on the processing

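The counts of 14 higher and 9 lower combinations of gene and pair became 13 to 15 and 9 over the other scalings, pseudocount, filters and left-out libraries, and 1141 changes moved by less than the replicate spread or counting interval while 44 moved by more. Of the tested values, 251 kept direction and call, 11 passed only under an alternative, 16 lost their call and 8 turned around. With 1 library left out, CCNE1 in HCC4006ER was -0.43 to 0.017 (above 0 without HCC4006P1 replicate 2), and the interaction was -0.11 to 0.47 for CCND1 (below 0 without HCC4006P1 replicate 2) and -0.39 to 0.14 for CCNE1 (above 0 without HepG2 replicate 1 or HCC4006P1 replicate 1, the latter 0.081 on all genes). Over 7 parental lines without HepG2, CDK4 was -0.042, CDKN2C -0.42 and RB1 0.016. In HCC4006ER all genes kept gave 1673 higher and 1744 lower, and leaving out 1 library gave 1990 to 4181 higher and 2061 to 4210 lower, the fewest without HCC4006ER replicate 1. In HepG2S3 the latter gave 3567 to 6580 higher and 3737 to 6662 lower. DESeq2 called 85 higher and 21 lower over 7 lines, and 3131 higher and 3698 lower with HCC4006P1 replicate 2 alone. With a replicate block, edgeR called 5279 higher and 5282 lower in HepG2S3, 3873 and 3914 in HCC4006ER, and 4164 and 4035 for the interaction. It added calls for CDK4 in HCC4006ER (0.45, adjusted p = 0.00096) and for CDKN1B in the interaction (-0.60, adjusted p = 0.047). Deviations of same-numbered libraries correlated by 0.0109 for HepG2S3 with HepG2 and by 0.264 for HCC4006ER with HCC4006P1, with 2 pairs each, so that the numbers were not taken to pair the libraries. The causes of these shifts were not tested. With HCC4006P1 replicate 1 kept as deposited, CDK6 would differ by 2.83 in HCC4006ER. The depth limits genes under 0.305 CPM.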
